A study of Rattus norvegicus with 24 samples.

Results

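The hearts of rats that had received rotenone in the feed for 1 day were compared with the hearts of control rats killed on the same day. The comparison uses 8 of the 24 arrays of the series, chosen by their titles, with 4 rats in the rotenone group and 4 in the control group and 1 array per rat. All rats were male RccHan Wistar rats aged 7 to 8 weeks at the start, and the tissue was the apex of the left ventricle. The treated rats received feed with 400 ppm rotenone, the controls received the same feed without it, and further groups of 4 treated and 4 control rats were killed after 3 and 14 days. Rats were assigned to the groups at random and shared cages, and which rats shared one is not given in the sources used here. Treated rats lost weight in the first days and no control group was matched for feed intake or weight, so an effect of rotenone on the heart and an effect of eating less cannot be told apart. The time of day of necropsy is not given in the sources used here, and the study measured complex I activity in liver, not in heart.

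Rotenone is a plant compound that blocks complex I, the first enzyme of the mitochondrial respiratory chain, and it also binds tubulin, the building block of microtubules. The heart makes nearly all of its ATP in mitochondria and burns mainly fatty acids, with glucose and lactate as flexible alternatives. When fatty acids are plentiful, as in fasting, the nuclear receptor PPAR alpha raises the genes of fatty acid use, and pyruvate dehydrogenase kinases close the gate through which glucose carbon enters the citric acid cycle.

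Each array gave 1 intensity per transcript cluster, the array's unit for a gene or a transcribed region, and values below are log2 intensities. The medians of the 8 arrays lay between 5.01 and 5.19, and the mean correlation of an array with its group, across transcript clusters, ran from 0.986 to 0.990. The background bound is 8.44, which 95% of the array's negative control probes stayed below, and sizes of changes are uncertain where 1 or both groups lie below it. This holds for Ucp3, Gpihbp1, Rbp7, Agpat2, Lipe, Slc25a22, Sqstm1-ps1, Nr1d1 and Penk, whose control values were all below it, and for Cnn2, Cntnap1, Efhd1, Msmo1, Rnf128 and Sik1, whose treated values were. A gene is called higher or lower at an adjusted p of 0.05 in limma, over all transcript clusters tested. Changes are rotenone minus control in mean log2 intensity ± standard error (SE), with n = 4 rats per group, and the SE rests on a spread pooled over all 6 groups of the series. Array probes do not count molecules, so the number of arrays limits the precision. Bulk tissue was measured, in which fewer cells of a type and less RNA per cell cannot be told apart.

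After 1 day, 337 of 68842 transcript clusters were called (0.49%), 137 higher and 200 lower. The share of higher calls moved with the scaling of the arrays, to 196 higher and 122 lower after quantile normalization and to 80 higher and 164 lower with the array medians set equal. Counted as genes, 245 of 22093 were called (1.11%), 104 higher (0.471%) and 141 lower (0.638%). Among the 5278 genes with a group mean above the bound, 3.6% were called, 1.59% higher and 2.01% lower, and these shares are the background for the gene lists below. In 244 of the 245 called genes the 4 rotenone values and the 4 control values did not overlap. The exception was Magee1. Over all genes, whatever the test, the values of the groups did not overlap in 10.1%, 4.38% higher and 5.72% lower. Only 43 called genes changed by more than 1 log2 unit. With the 8 arrays fitted alone, without the spread of the other groups, 68 transcript clusters were called, 36 higher and 32 lower, and 60 of the 92 called genes named below lost their call. No call named below turned its direction in an alternative fit. Where the groups do not overlap, leaving out 1 array cannot turn it. Fits that alter only the variances or the number of tests keep the change itself.

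The tissue carried the markers of ventricular muscle, with all 9 measured markers above the bound, and markers of skeletal muscle, lymphocytes, granulocytes, adipocytes, Schwann cells and mesothelium had 0 genes above it. None of the measured markers of 13 cell types was called at day 1. The summed intensity of the endothelial markers ran from 64859 to 86518 in control rats and from 50890 to 96942 in rotenone rats, and that of the fibroblast markers from 138089 to 162239 and from 128986 to 179976. These ranges overlapped. All 6 red cell precursor markers had positive values, with a median change of 0.35.

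**Figure D1:**
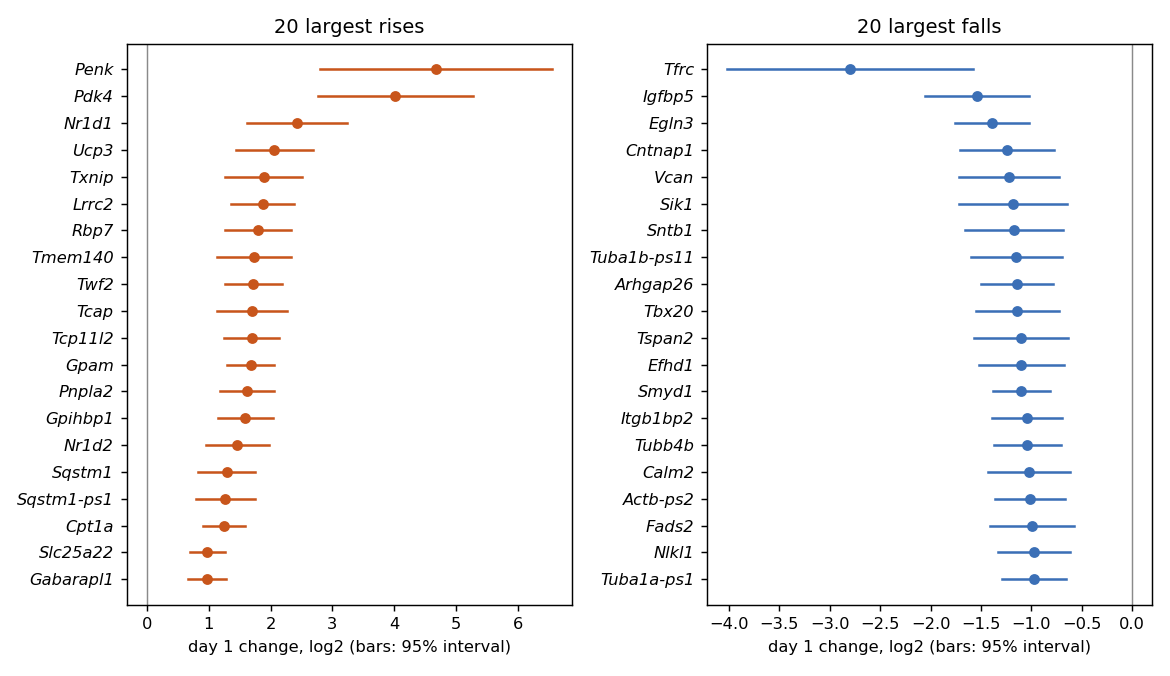
The 20 largest rises and the 20 largest falls at day 1 among called genes above the background bound, as log2 differences between rotenone and control rats with 95% intervals of the fit. Penk (4.68) and Pdk4 (4.02) stand above all other rises, and Tfrc (-2.80) is the largest fall with the widest interval of its panel.

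Several genes of fatty acid use rose on the first day. Of 19 measured targets of PPAR alpha and of fasting, 8 rose and 0 fell, with a median change of 0.66 beside 0.01 over all genes. Pdk4, the kinase that shuts pyruvate dehydrogenase in the fasted heart, had log2 intensities of 14.25, 13.81, 14.80 and 13.49 in the control rats and 18.55, 17.74, 18.27 and 17.87 in the rotenone rats. Every treated rat stood more than 2 log2 units above every control rat. The change was 4.02 ± 0.61, or 16.2-fold (adjusted p = 0.0022). Its relative Pdk2, the kinase form that the heart holds at a steady level, rose by 0.64 ± 0.12 (adjusted p = 0.00916), from a control range of 15.26 to 15.50 to a rotenone range of 15.91 to 16.13. The other 11 genes of the pyruvate gate, which include the subunits of pyruvate dehydrogenase, its phosphatases and the mitochondrial pyruvate carrier, were not called, with changes between -0.25 and 0.36.

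Carnitine palmitoyltransferase 1 lets long-chain fatty acids into mitochondria, and both of its measured forms rose. Cpt1a, the form of liver and fetal heart, stood at 10.19, 9.83, 9.91 and 9.33 in control rats and at 11.11, 11.04, 11.03 and 11.07 in rotenone rats. Treated rats were nearly identical to each other (SD 0.04) while control rats were spread (SD 0.36), and the groups did not overlap. The change was 1.25 ± 0.16 (adjusted p = 0.000573). Cpt1b, the muscle form, rose from 15.03 ± 0.03 to 15.69 ± 0.15 (mean ± SD), a change of 0.66 ± 0.10 (adjusted p = 0.00174). Cpt1b and Pdk2 were not called after quantile normalization. Mlycd, which removes malonyl-CoA, the inhibitor of this step, rose by 0.90 ± 0.15. Acot2, a mitochondrial thioesterase, rose by 0.87 ± 0.15.

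Ucp3, an inner membrane protein of muscle mitochondria that is raised by fatty acids, went from 7.81, 7.39, 7.74 and 7.38 in control rats to 9.83, 9.58, 9.62 and 9.53 in rotenone rats. Control values lay under the background bound and all treated values above it. The change was 2.06 ± 0.30 (adjusted p = 0.00174). Angptl4, which blocks lipoprotein lipase outside the cell, lay at 5.52, 5.21, 5.53 and 5.78 in control rats and at 9.87, 7.13, 8.18 and 7.37 in rotenone rats. All treated rats were higher, but only rat 1 rose above the bound, so the size of its change, 2.63 ± 0.47 (adjusted p = 0.00777), is uncertain.

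Genes of fatty acid oxidation itself moved less. Of 27 measured genes, 4 rose, namely Cpt1a, Cpt1b, Mlycd and Ech1, 0 fell, and 23 were not called. The direction was still shared, since 26 of the 27 values were positive, with a median change of 0.28. Over all genes 11872 of 22093 values were positive, and above the bound 2065 of 5278. Ech1, an auxiliary enzyme for unsaturated fatty acids, rose by 0.78 ± 0.15 (adjusted p = 0.0134), a call lost in 4 of the 8 fits that left out 1 array. The core enzymes of the spiral were not called. Hadha, a subunit of the mitochondrial trifunctional protein, had a change of 0.30 ± 0.09 with no overlap between groups, and Acadm, the medium-chain dehydrogenase, had 0.16 ± 0.11. At day 3, 9 of the 27 genes were called higher, beside 0.643% of all genes.

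Some genes of fatty acid uptake at the capillary and the cell surface also changed. Of 18 measured genes of uptake and lipoprotein lipase, Angptl4 among them, 3 rose and 0 fell, with a median change of 0.12. The treated values lay entirely above the control values in 5 of the 18 and entirely below in 2, beside 4.38% and 5.72% of all genes. The lowest change was -0.57. Gpihbp1, the capillary anchor of lipoprotein lipase, rose by 1.59 ± 0.22 (adjusted p = 0.00104), from 7.03, 7.08, 7.09 and 6.74 to 8.92, 8.68, 8.47 and 8.25. Lowest among the treated rats was rat 4, still well above the highest control. Cd36, the fatty acid transporter of the muscle cell surface, rose by 0.57 ± 0.10 (adjusted p = 0.00464), with control values of 17.72 to 17.81 and rotenone values of 18.31 to 18.40. Lpl, lipoprotein lipase itself, had a change of 0.03 with a 95% interval from -0.14 to 0.19. Its log2 intensity was 18.89 to 18.98, and whether changes are compressed at such brightness was not tested. Slc27a1, a fatty acid transport protein, had a change of 0.99 ± 0.24 that did not pass (adjusted p = 0.0799). Rbp7, a retinoid-binding protein of capillary endothelium, rose with 4 control values of 7.36 to 7.93, under the bound, and treated values of 8.94 to 9.88 (adjusted p = 0.00174), and Cd300lg, a surface protein of capillary endothelium chosen here after its values were seen, by 0.98 ± 0.17 at a level under the bound. Beside these capillary genes, the 6 endothelial markers had a median change of 0.02 and their summed intensities overlapped, as given above.

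Genes of both the building and the breakdown of stored triglyceride rose. Of 22 measured genes, 4 rose and 0 fell. Gpam, which commits fatty acids to glycerolipids, went from 12.38, 12.42, 12.40 and 11.94 to 13.99, 13.53, 14.25 and 14.08, a change of 1.68 ± 0.18 (adjusted p = 0.000266). Agpat2, the next acyltransferase of that path, rose by 0.74 ± 0.12. On the side of breakdown, Pnpla2, the adipose triglyceride lipase, rose from values of 13.89, 13.71, 13.90 and 13.56 to 15.47, 15.18, 15.28 and 15.61, a change of 1.62 ± 0.21 (adjusted p = 0.000573). No treated rat came within 1 log2 unit of a control rat for this gene. Lipe, the hormone-sensitive lipase, rose by 0.76 ± 0.15, a call lost in 4 of the 8 fits that left out 1 array. The 5 measured markers of adipocytes were all under the bound in both groups, with summed intensities of 171 to 217 in control and 192 to 233 in rotenone rats.

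Among 16 carriers of the inner mitochondrial membrane, Slc25a22, a glutamate carrier, rose by 0.98 ± 0.14 (adjusted p = 0.0014) beside Ucp3, and Slc25a34 rose by 0.75 ± 0.16, which was lost in 6 of the 8 fits that left out 1 array. The remaining 13 carriers were not called.

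Several genes of glucose use fell. Of 27 genes of glucose uptake, glycolysis and lactate transport, 4 fell and 0 rose. Slc16a1, a transporter of lactate and other monocarboxylates, fell from 13.86, 14.03, 14.14 and 13.87 to 13.01, 12.81, 13.15 and 13.35, a change of -0.89 ± 0.12 (adjusted p = 0.0014). Hexokinases trap glucose in the cell, and both of the forms that the heart uses fell. Hk1 stood at 13.05, 13.10, 12.99 and 13.01 in control rats and at 12.16, 12.44, 12.36 and 12.38 in rotenone rats, a change of -0.70 ± 0.10 (adjusted p = 0.00205). Hk2, the insulin-responsive form, fell by 0.91 ± 0.17 (adjusted p = 0.0126), a call lost in 3 of the 8 fits that left out 1 array. Pfkl, a phosphofructokinase subunit, fell by 0.68 ± 0.11 (adjusted p = 0.00434), whereas its muscle form Pfkm had a value of -0.11 ± 0.11. The other 23 genes of the list were not called, with changes between -0.59 and 0.55, and in all 9 of the 27 had treated values entirely below the control values. Gapdh had 0.00 ± 0.06 at a log2 intensity of 19.42, and whether changes are compressed at such brightness was not tested. Slc2a4, the insulin-responsive glucose transporter, had -0.28 ± 0.12 (adjusted p = 0.533). None of these 4 falls was called with the 8 arrays fitted alone.

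Some alpha-arrestins, Txnip and Arrdc4 among them, remove glucose transporters from the cell surface. Txnip rose from 14.40, 14.10, 14.84 and 14.69 to 16.82, 15.89, 16.46 and 16.41, a change of 1.89 ± 0.30 (adjusted p = 0.00338). Arrdc4, its closest relative, rose by 0.81 ± 0.14 (adjusted p = 0.0053), from 8.82 to 8.99 in control rats to 9.57 to 9.93 in rotenone rats. The remaining 4 alpha-arrestins were not called. Of 19 glycogen genes, Ugp2, which makes the glucose donor of glycogen synthesis, rose by 0.87 ± 0.14, and 18 were not called.

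Several other parts of energy metabolism had no called gene. All 16 genes of the citric acid cycle stayed uncalled, with changes between -0.22 and 0.13 and 95% intervals that lay within 1 log2 unit of 0 for all 16. None of 21 genes of ketone body and branched-chain amino acid use was called. Among 19 regulators of these programmes, 0 were called, and Ppara had a value of -0.33 ± 0.13 and Ppargc1a one of 0.17 ± 0.17. Of 23 genes of insulin and FoxO signalling, 2 rose and 1 fell (13%, beside 3.6% of the genes above the bound). Treated values lay entirely above the control values in 8 of the 23 and entirely below in 4, beside 4.38% and 5.72% of all genes. Klhl24, an adaptor of a ubiquitin ligase, rose by 0.49 ± 0.09 and Foxo4 rose by 0.45 ± 0.10. Sesn3, a stress-induced regulator of growth signalling, fell by 0.46 ± 0.10. The calls of Foxo4 and Sesn3 were each lost in 7 of the 8 fits that left out 1 array. Irs2, an insulin receptor substrate, had the largest value of this list, -1.34 ± 0.45, with no overlap between groups, and was not called (adjusted p = 0.305). With the 8 arrays fitted alone in limma, Irs2 was called (adjusted p = 0.0454).

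**Figure D2:**
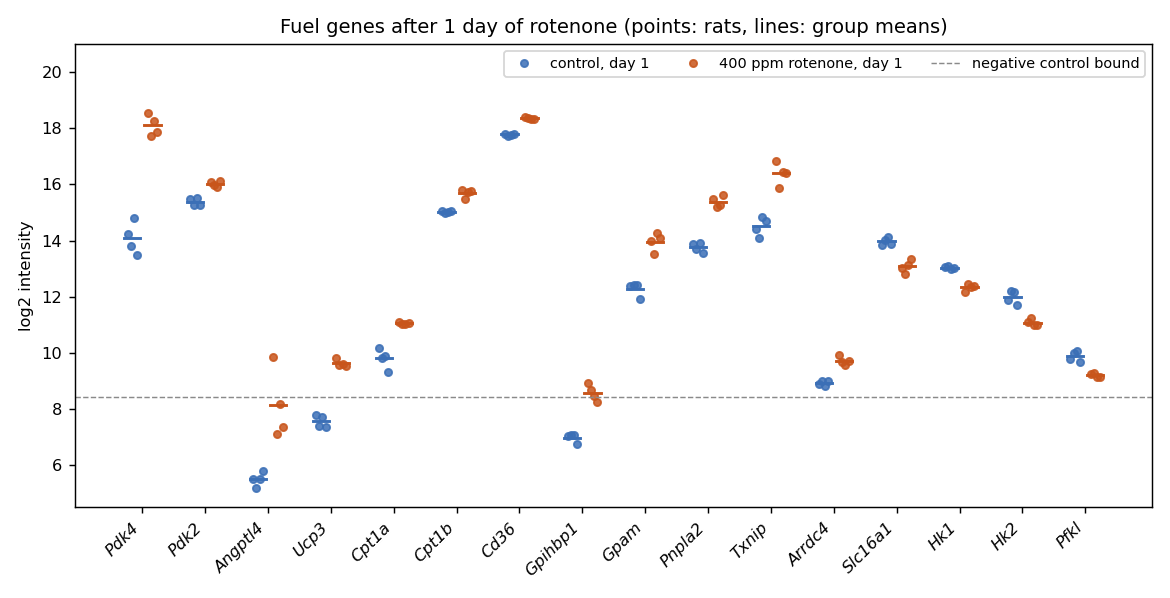
Log2 intensity of 16 genes of fuel use in each of the 4 control rats and the 4 rats fed 400 ppm rotenone for 1 day, with group means as lines and the negative control bound (8.44) dashed. In all 16 genes the groups are apart, with the 12 genes from Pdk4 to Arrdc4 higher and the 4 from Slc16a1 to Pfkl lower in rotenone rats.

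Several tubulins fell within the first day. Alpha and beta tubulins form the microtubule, gamma tubulin starts it, and cells lower tubulin mRNA when free tubulin subunits build up. Of 20 measured tubulin genes, 6 fell and 0 rose, 18 had negative values, and the median change was -0.36. Over all genes, 10221 of 22093 values were negative. In 12 of the 20 the treated values lay entirely below the control values, beside the 5.72% of all genes given above. Only 7 of the 20 genes had a group mean above the bound.

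Tubb4b, a beta tubulin, had the largest fall. Its log2 intensity was 13.59, 13.49, 13.44 and 13.50 in control rats and 12.22, 12.50, 12.56 and 12.56 in rotenone rats, and every treated rat lay well below every control. The change was -1.04 ± 0.16 (adjusted p = 0.00282). The alpha tubulins Tuba1a, Tuba1b and Tuba1c, which are nearly identical in sequence and may share probes, fell by 0.94 ± 0.16, 0.90 ± 0.17 and 0.79 ± 0.13. Tuba1a stood at 15.12, 15.17, 15.11 and 14.91 in control rats and at 14.43, 14.27, 14.14 and 13.69 in rotenone rats. Rotenone rat 4 was the lowest for all 3 genes. The transcript clusters named for the pseudogenes Tuba1b-ps11 and Tuba1a-ps1 were 2.22-fold and 1.96-fold lower, both called. Tuba1b lost its call in 2 and Tuba1b-ps11 in 3 of the 8 fits that left out 1 array, and which copy these probes measured cannot be told apart here. Tuba4a fell by 0.77 ± 0.11 and the gamma tubulin Tubg2 by 0.37 ± 0.08, both under the bound, and the call of Tubg2 was lost in all 8 fits that left out 1 array.

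Several tubulins had values of the same sign and did not pass. Tubb5, a major beta tubulin, had -0.71 ± 0.24 (adjusted p = 0.33), with 11.92 and 11.74 in rotenone rats 1 and 2, 11.19 and 11.03 in rats 3 and 4, and 12.08 to 12.27 in control rats. Tuba8, an alpha tubulin of muscle, had -0.58 ± 0.16 and Tubg1 -0.43 ± 0.10 (adjusted p = 0.0649). With 1 transcript cluster per gene, so fewer tests, 10 tubulins were called, and with the 8 arrays fitted alone 1 was.

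None of 21 genes of tubulin folding and tubulin mRNA decay was called, with a median change of -0.04 and 4 of the 21 with treated values entirely below the control values, and Ttc5, the factor that recognises nascent tubulin for this decay, had -0.07 ± 0.10. None of 29 microtubule-associated and tubulin-modifying genes was called, with a median of -0.00, all 29 intervals within 1 log2 unit of 0 and 4 of the 29 lower with no overlap. Whether these lists differed from the tubulins was not tested.

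No tubulin was called at day 3 or at day 14, when the medians of the list were -0.14 and -0.05. For Tubb4b the change at day 14 was 0.58, and the difference between the day 14 and the day 1 change, 1.62 ± 0.23, passed its own test (adjusted p = 0.00945). For the other tubulins no difference between days passed, and the test between day 3 and day 1 called 0 genes of all in limma (3950 transcript clusters, 5.74%, at an unadjusted p of 0.05, and 6 after quantile normalization).

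**Figure D3:**
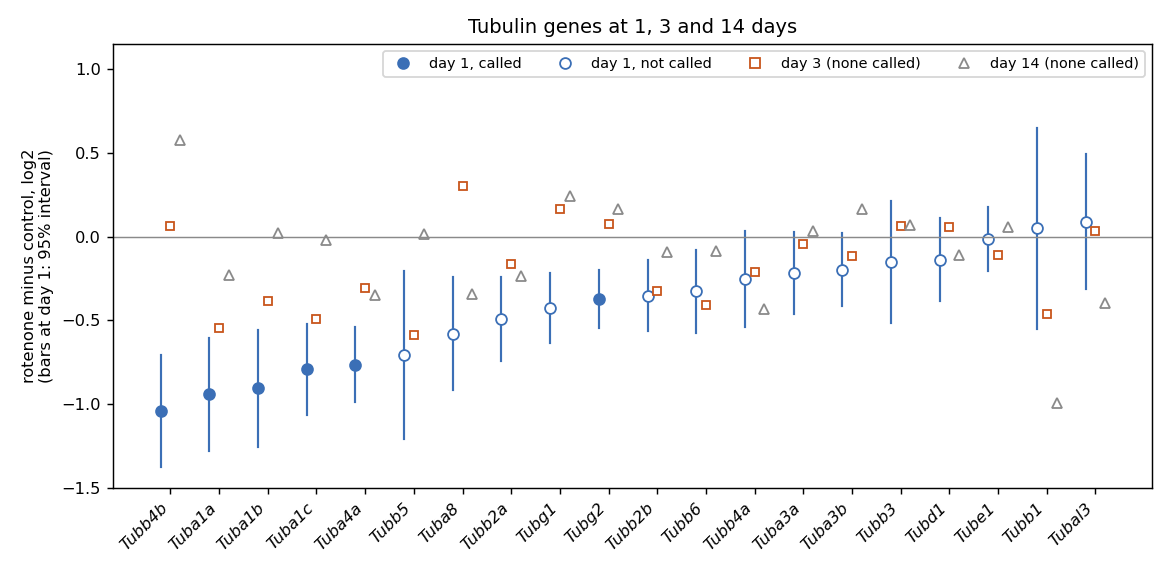
Change of 20 tubulin genes after 1 day (circles with 95% intervals, filled where called), 3 days (squares) and 14 days (triangles), in log2 units of rotenone minus control of the same day. At day 1 the values run from -1.04 for Tubb4b to 0.09 for Tubal3, and no tubulin was called on the later days.

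Actin was the other part of the cytoskeleton with a marked change. Actg1, cytoplasmic gamma actin, fell from 15.91, 16.21, 16.14 and 16.28 to 15.48, 15.02, 15.27 and 14.94, a change of -0.96 ± 0.16 (adjusted p = 0.00575). The cluster named for the pseudogene Actb-ps2, close in sequence to the cytoplasmic actins, fell by 1.01 ± 0.17, whereas Actb itself had -0.32 ± 0.14 (adjusted p = 0.528). Acta2, the smooth muscle actin, had -0.97 ± 0.27 with no overlap and was not called. Twf2, a twinfilin that caps actin filaments, went the other way and rose by 1.72 ± 0.22 (adjusted p = 0.000632), from a control range of 10.68 to 11.08 to a rotenone range of 12.34 to 12.82. Of 19 actin and intermediate filament genes these were the only calls, 1 higher and 1 lower. Markers of smooth muscle and pericytes had 5 of 7 values below 0, a median change of -0.23 and summed intensities of 89279 to 137708 in control and 64735 to 111328 in rotenone rats, and their part in the actin values was not tested.

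Serum response factor, SRF, is the transcription factor through which the state of the actin cytoskeleton reaches the genes of actin and of the contractile apparatus, and it binds a sequence known as the CArG box. Srf fell from 12.16, 12.33, 12.30 and 11.99 to 11.56, 11.49, 11.05 and 11.41, a change of -0.82 ± 0.15 (adjusted p = 0.00841). Fhl2, a protein of the Z-disc that binds SRF, fell by 0.73 ± 0.12 (adjusted p = 0.00388), from 16.64, 16.46, 16.49 and 16.53 to 15.78, 15.96, 15.71 and 15.76. Cnn2, an actin-binding calponin chosen after its values were seen, fell by 0.73 ± 0.16, a call lost in 7 of the 8 fits that left out 1 array. After quantile normalization Actg1, Actb-ps2 and Fhl2 were not called. The promoters of these genes are shown because they hold CArG boxes, printed in capitals within the windows below, 5′ to 3′ on the strand of the gene, from RefSeq on assembly GRCr8. The motif is a pair of C, 6 bases that are A or T and a pair of G, and it reads as the same motif on both strands.
Srf, chr9:21923975-21924044, plus strand: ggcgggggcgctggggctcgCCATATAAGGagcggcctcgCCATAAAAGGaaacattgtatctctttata
Actg1, chr10:106121012-106121061, minus strand: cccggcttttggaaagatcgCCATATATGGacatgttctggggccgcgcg
Fhl2, first of its promoters with a box, chr9:52954606-52954655, minus strand: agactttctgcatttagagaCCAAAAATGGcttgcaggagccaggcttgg
Fhl2, another promoter, chr9:52923355-52923404, minus strand: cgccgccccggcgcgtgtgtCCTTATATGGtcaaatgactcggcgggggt
Cnn2, chr7:10370354-10370403, minus strand: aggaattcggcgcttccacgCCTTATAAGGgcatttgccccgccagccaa

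The boxes of Srf begin 81 and 61 bases before the annotated start of transcription, that of Actg1 90 bases, those of Fhl2 95 and 58 bases and that of Cnn2 71 bases before theirs. Over all promoter windows of 250 bases before to 50 bases after a start, 548 of 33469 (1.64%) held the motif on either strand. Of the 112 genes called lower that had a window, 7 held it (6.25%), the 4 above with Lclat1, Rnf128 and Gpn1, which fell by 0.87, 0.68 and 0.35, the last of these lost in all 8 and the second in 6 of the 8 fits that left out 1 array. Of the 78 genes called higher with a window, 0 held it, and of 16935 genes not called, 267 (1.58%). Genes differ in how many windows they have, the search was chosen after the falls were seen, and a match of letters is not a measured binding site. For comparison, the E-box of clock factors, CACGTG, which reads the same on both strands, was held by 8.97% of the genes called higher, 5.36% of those called lower and 8.15% of those not called.

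A few genes of autophagy rose. In autophagy, receptors tether cargo to proteins of the Atg8 family on the growing membrane, which then fuses with the lysosome. Of 13 Atg8 proteins and receptors, 3 rose and 0 fell, with a median change of 0.39. Sqstm1, the receptor p62, stood at 8.85, 9.12, 9.13 and 8.82 in control rats and at 10.51, 10.06, 9.98 and 10.54 in rotenone rats. Its change was 1.29 ± 0.22 (adjusted p = 0.00598), and the cluster named for its pseudogene Sqstm1-ps1 rose alike, by 1.27 ± 0.23.

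Gabarapl1, an Atg8 protein and a target of FoxO factors in muscle, went from 11.17, 10.93, 11.34 and 10.89 to 12.08, 11.82, 12.15 and 12.18. The change was 0.97 ± 0.15 (adjusted p = 0.00267), with all treated rats above all controls. Calcoco1, a receptor for autophagy of the endoplasmic reticulum, rose by 0.62 ± 0.12, a call lost in 6 of the 8 fits that left out 1 array. Nbr1, a receptor related to p62, had 0.39 ± 0.09 (adjusted p = 0.0605) and Map1lc3b, the LC3 protein used to follow autophagy, 0.49 ± 0.14 (adjusted p = 0.143), both with no overlap between groups.

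Of 30 genes of autophagosome formation, Wdr45, which binds the lipid of the early autophagosome, rose by 0.85 ± 0.15 (adjusted p = 0.00584), from a control range of 9.92 to 10.17 to a rotenone range of 10.69 to 11.11. The remaining 29 were not called, and the median change was 0.06. The called share of this list was 3.33%, beside 3.6% of the genes above the bound. Atg13, a subunit of the starting kinase complex, had 0.63 ± 0.16 (adjusted p = 0.105). None of 11 mitophagy genes was called. Bnip3 had 0.57 ± 0.18 with no overlap between groups and Pink1, the kinase that marks damaged mitochondria, 0.21 ± 0.10, and all 11 intervals lay within 1 log2 unit of 0.

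In the lysosome, 1 of 39 genes was called (2.56%, beside 3.6% of the genes above the bound). Ctsl, a cathepsin that is a marker of muscle wasting, rose by 0.79 ± 0.16 (adjusted p = 0.0194), from 11.75, 12.01, 11.82 and 11.77 to 12.69, 12.61, 12.51 and 12.69, a call lost in 5 of the 8 fits that left out 1 array. Another cathepsin, Ctsb, had -0.33 ± 0.10. Of 18 ubiquitin ligases and partners of muscle atrophy, Ube4b, which extends ubiquitin chains, rose by 0.66 ± 0.11 (adjusted p = 0.00598). Trim55, the sarcomere ligase MuRF2, fell by 0.80 ± 0.12 (adjusted p = 0.00234), from a control range of 12.92 to 13.09 to a rotenone range of 11.99 to 12.43. The ligases best known from wasting muscle were not called, with 0.59 ± 0.18 for Fbxo32 (atrogin-1) and 0.31 ± 0.15 for Trim63 (MuRF1), the latter with overlapping groups. Of 32 proteasome genes, Psmd8 rose by 0.51 ± 0.11, a call lost in 7 of the 8 fits that left out 1 array, and 31 were not called. The called share of the proteasome genes was 3.12%.

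**Figure D4:**
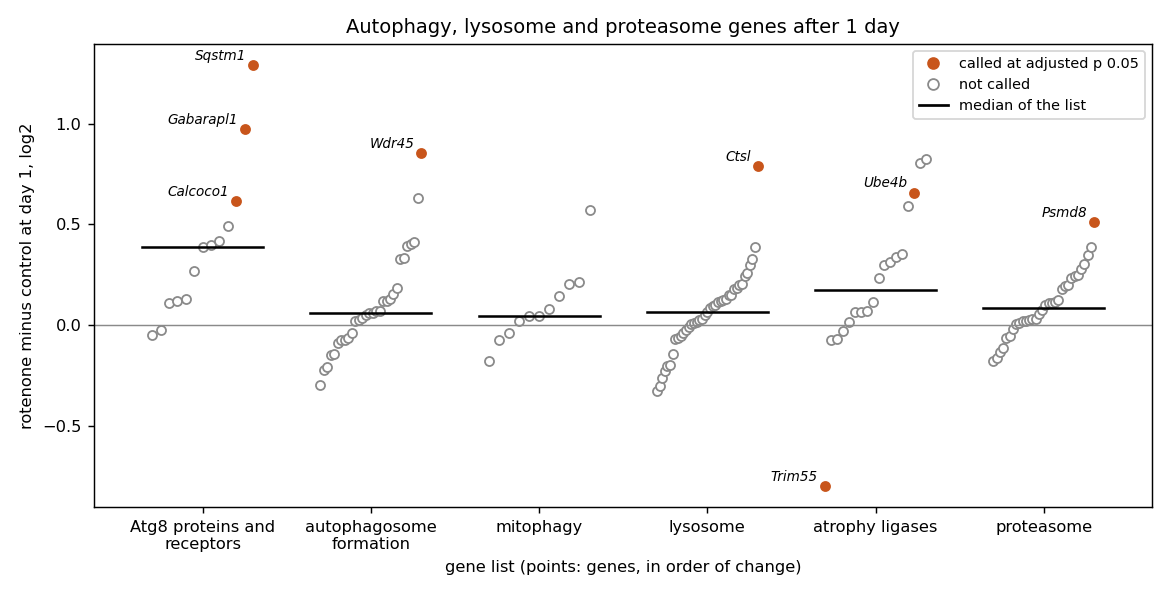
Day 1 change of each measured gene in 6 lists of protein breakdown, in log2 units of rotenone minus control, ordered within each list, with called genes filled and named and list medians as lines. The Atg8 proteins and receptors have the highest median (0.39), and every other list has a median of 0.17 or less with 1 or 2 called genes or, in mitophagy, 0.

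Both REV-ERB receptors of the circadian clock rose on the first day. These nuclear receptors repress Bmal1, the activator of the clock, and link it to metabolism. Nr1d1 went from 7.51, 7.12, 6.81 and 7.00 in control rats to 9.90, 9.39, 9.75 and 9.14 in rotenone rats, a change of 2.43 ± 0.39 (adjusted p = 0.00354) with no overlap. Nr1d2 went from a control range of 9.91 to 10.43 to 11.30, 11.77, 11.76 and 11.46, a change of 1.47 ± 0.25 (adjusted p = 0.00489). The other 11 clock repressors and output factors were not called, with -0.59 ± 0.18 for Cry1, -0.38 ± 0.28 for Per2 and 0.35 ± 0.28 for Dbp, all 3 under the bound. Of all 13, treated values lay entirely above the control values in 2 and entirely below in 4, beside 4.38% and 5.72% of all genes. None of 5 clock activators and partners was called. Bmal1 itself stood at 10.27, 10.45, 10.52 and 10.36 in control rats and at 10.52, 10.34, 10.16 and 10.29 in rotenone rats, a change of -0.07 ± 0.33. At day 14 its change was -2.78, and the difference from day 1, -2.72 ± 0.47, passed (adjusted p = 0.0242). Rats killed at different hours would differ in these genes, and whether groups were killed at the same hour could not be checked.

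Outside these programmes, the largest rise of all was that of Penk, the precursor of enkephalins, which heart muscle makes. It stood at 8.06, 7.18, 7.01 and 6.36 in control rats and at 13.45, 8.38, 12.59 and 12.89 in rotenone rats. Rotenone rat 2 lay just above the highest control and the other 3 treated rats far above it. The change was 4.68 ± 0.90 (adjusted p = 0.0143), and the call was lost in 5 of the 8 fits that left out 1 array. Tcap, the titin cap of the Z-disc, rose by 1.70 ± 0.27 (adjusted p = 0.00338), from a control range of 12.11 to 13.08 to a rotenone range of 14.12 to 14.75, and Mypn, another Z-disc protein, by 0.61 ± 0.12, a call lost in 5 of those 8 fits. Further large rises were those of Lrrc2, a leucine-rich repeat protein (1.87 ± 0.25), Tmem140, a membrane protein (1.74 ± 0.29), and Tcp11l2 (1.70 ± 0.21). Clpx, the unfoldase of a mitochondrial protease, rose by 0.94 ± 0.14 (adjusted p = 0.00215) as the only called gene of 14 mitochondrial chaperones and proteases.

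Tfrc, the transferrin receptor that takes up iron, had the largest fall. It stood at 12.84, 12.76, 13.11 and 12.90 in control rats and at 9.27, 10.36, 10.04 and 10.76 in rotenone rats. All treated rats were at least 2 log2 units lower, yet the spread of this gene over the 6 groups was wide, the change was -2.80 ± 0.59 (adjusted p = 0.0289), and the call was lost in 7 of the 8 fits that left out 1 array, while it held with the 8 arrays alone (adjusted p = 0.0137). None of the other 14 iron genes was called. The red cell precursors, which also carry this receptor, had summed marker intensities of 616517 to 750707 in control and 642656 to 863912 in rotenone rats. That sum rests mainly on 1 very bright gene, Hba-a1, with means of 19.33 in control and 19.43 in rotenone rats, and says little about the dimmer markers. The part of red cell precursors in the Tfrc values was not tested.

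Igfbp5, a binding protein of insulin-like growth factors, fell from 13.13, 12.98, 13.07 and 13.27 to 12.08, 11.95, 11.37 and 10.89, a change of -1.54 ± 0.25 (adjusted p = 0.0038). Egln3, an oxygen-dependent prolyl hydroxylase of the heart, fell from 16.46, 16.68, 16.56 and 16.25 to 15.30, 15.01, 14.86 and 15.22, a change of -1.39 ± 0.18 (adjusted p = 0.000545). It was the only called gene of 24 HIF targets and oxygen sensors (4.17%, beside 3.6% of the genes above the bound).

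Smyd1, a methyltransferase of striated muscle, went from 15.48, 15.05, 15.27 and 15.17 to 14.02, 14.43, 14.05 and 14.06, a change of -1.10 ± 0.14 (adjusted p = 0.00054). Tbx20, a cardiac T-box factor, fell by 1.14 ± 0.20 (adjusted p = 0.00682), and with Srf it made 2 called of 16 cardiac transcription factors. Itgb1bp2, the muscle protein melusin, fell by 1.05 ± 0.17 and Calm2, a calmodulin gene, by 1.02 ± 0.20. Tbx20, Calm2, Slc8a1 and Chrm2 were not called after quantile normalization. Slc8a1, the sodium-calcium exchanger, fell by 0.58 ± 0.10 (adjusted p = 0.00728), the only call of 27 genes of ion channels and calcium handling (3.7%, beside 3.6% of the genes above the bound). Chrm2, the muscarinic receptor of the heart, chosen after its values were seen, fell by 0.96 ± 0.14 (adjusted p = 0.00174) from a narrow control range of 15.66 to 15.70 to 14.60 to 14.84. Other large falls were those of Cntnap1, a protein of nerve fibre junctions (-1.24 ± 0.22), the proteoglycan Vcan (-1.22 ± 0.24), the kinase Sik1 (-1.18 ± 0.26), the syntrophin Sntb1 (-1.17 ± 0.23), the tetraspanin Tspan2 (-1.11 ± 0.23), the calcium-binding Efhd1 (-1.10 ± 0.20) and Nlkl1 (-0.98 ± 0.17). Among these falls Sik1 lost its call in 7, Tspan2 in 5, Vcan in 4, Sntb1 and Calm2 in 3 and Efhd1 in 2 of the 8 fits that left out 1 array, and Sntb1 and Tspan2 were not called after quantile normalization.

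Lipid synthesis was the remaining metabolic set with falls. Of 19 genes of cholesterol synthesis, Msmo1, Sqle, Idi1 and the regulator Srebf2 fell, by 0.84 ± 0.12, 0.79 ± 0.12, 0.77 ± 0.14 and 0.60 ± 0.11, with 3 of these 4 under the bound. The desaturases Fads1 and Fads2, which make long polyunsaturated fatty acids, fell by 0.93 ± 0.18 and 0.99 ± 0.20 among 15 genes of fatty acid synthesis, and Srebf2 lost its call in 4, Fads1 in 2 and Fads2 in 6 of the 8 fits that left out 1 array. Fads1 was even in control rats (9.66, 9.62, 9.69 and 9.67) and lower in all rotenone rats (9.17, 8.61, 8.65 and 8.48). Of 17 chaperones of the endoplasmic reticulum, 15 had negative values and Pdia6, a disulfide isomerase, was the only one called, at -0.82 ± 0.14 (adjusted p = 0.00464). Among the 5278 genes above the bound, 3213 had negative values.

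Lists with many calls on the later days had few or none at day 1, which does not show that their genes were unchanged then. Each day has its own controls, and over all genes 2.03% were called at day 3, 1.39% lower, and 5.82% at day 14, 3.59% lower and 2.23% higher. Of 33 genes of mitosis and the spindle, 0 were called at day 1 and 23 were lower at day 3 and 18 at day 14, with medians of 0.05, -0.88 and -0.62. All 33 intervals at day 1 lay within 1 log2 unit of 0, and only 1 of the 33 genes was above the bound. Mki67, a marker of cycling cells, stood at 9.18, 9.71, 9.30 and 9.68 in control rats and at 9.82, 10.09, 9.25 and 8.76 in rotenone rats of day 1, a change of 0.01 ± 0.35. At day 3 its change was -3.00, and the difference between the days, -3.01 ± 0.50, did not pass (adjusted p = 0.117). For none of the 33 genes did the change at day 3 or day 14 pass the test against day 1. At an unadjusted p of 0.05 in limma, 31 of the 33 changes differed between day 3 and day 1, beside 1285 of all 22093 genes.

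Of 40 collagen and matrix genes, 0 were called at day 1, 15 were lower at day 3 and 24 at day 14, with medians of -0.20, -0.57 and -0.82. At day 1, 35 of the 40 values were negative, 7 of them at an unadjusted p of 0.05 in limma. Among the 5278 genes above the bound, 3213 had negative values and 794 were lower at that p. The change differed from day 1 for 0 of the 40 genes at day 3 and for 4 at day 14. Col3a1, a main fibrillar collagen, had 13.93, 14.49, 14.42 and 14.26 in control rats and 14.65, 14.33, 13.99 and 13.68 in rotenone rats, a change of -0.11 ± 0.32. The difference of its day 14 change from day 1 was -3.04 ± 0.46 (adjusted p = 0.0113). For Col1a1 that difference was -2.46 ± 0.41 (adjusted p = 0.0211), and for Mfap4, a microfibril protein, -2.48 ± 0.32 (adjusted p = 0.004). Rotenone rats 3 and 4 had the lowest Col3a1 and Col1a1 values of the treated group, and the groups overlapped.

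Erythroid genes and ribosomal proteins were called only on the later days. Of 30 erythroid genes, 0 were called at day 1 and 13 were lower at day 14, and for 6 of the 30 the change differed between day 14 and day 1. Alas2, which starts heme synthesis in developing red cells, had 10.89, 11.59, 11.83 and 10.60 in control rats and 11.39, 10.99, 12.01 and 12.86 in rotenone rats of day 1, a change of 0.59 ± 0.61, and -5.40 at day 14 (difference -5.99 ± 0.86, adjusted p = 0.00945). Slc4a1, the anion exchanger of red cells, had 0.37 ± 0.27 at day 1 and a difference of -2.44 ± 0.38 (adjusted p = 0.0156). Of 27 ribosomal proteins of the cytosol, 0 were called at day 1 and 15 were higher at day 14. Their median was -0.12 at day 1 and 0.50 at day 14, and no single member passed the test between these days. At day 1, 23 of the 27 values were negative, beside 10221 of all 22093 genes and 3213 of the 5278 above the bound. Treated values lay entirely below the control values in 9 of the 27 and entirely above in 1, beside 5.72% and 4.38% of all genes. The absence of calls at day 1 thus does not show that these genes were unchanged then.

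Of the genes of complex I, the target of rotenone, 0 of 47 were called at day 1, 3 or 14, and at day 1 the changes ran from -0.36 to 0.16 with all 47 intervals within 1 log2 unit of 0. None of 32 genes of complexes III to V was called at day 1. No gene was called at day 1 among 10 cytosolic heat shock proteins, 23 antioxidant, 19 interferon-induced and 20 immediate early genes and 18 aminoacyl-tRNA synthetases. Intervals lay within 1 log2 unit of 0 for 9, 21, 16, 12 and 18 of these. Changes of the antioxidant genes ran from -0.21 to 1.52, and 18 of the 23 were positive, beside 11872 of all 22093 genes. Of the 23, 5 were higher and 1 lower with no overlap between groups, beside 4.38% and 5.72% of all genes. On the later days some genes of these 5 lists were called, among them 3 immediate early genes lower at day 3 and 2 heat shock proteins lower at day 14. Of 27 genes of the ATF4 stress response, Slc7a1, a transporter of cationic amino acids, was the only call at day 1 (3.7%, beside 3.6% of the genes above the bound). It fell by 0.78 ± 0.12 at a level under the bound. At day 3, 1 gene of this list was higher and 3 were lower, and at day 14, 2 were higher and 4 lower. Nr4a1, an immediate early gene, had -1.66 ± 0.39 with no overlap between groups and just missed the threshold (adjusted p = 0.0605). With the 8 arrays fitted alone in limma, Nr4a1 was called (adjusted p = 0.0137).

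**Figure D5:**
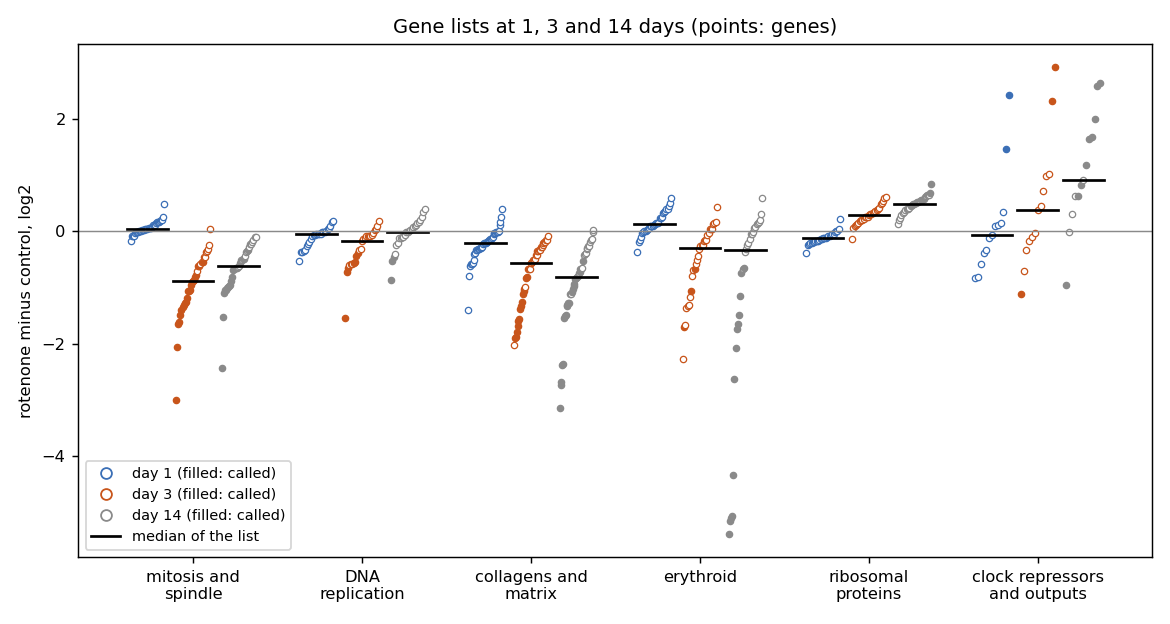
Change of each measured gene in 6 lists after 1, 3 and 14 days, in log2 units of rotenone minus control of the same day, with called genes filled and list medians as lines. The lists are mitosis, DNA replication, matrix, erythroid, ribosomal and clock genes. At day 1 only Nr1d1 and Nr1d2 of the clock list are called, while at day 3 and day 14 mitosis, matrix and erythroid genes reach down to -5.40 (Alas2).

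Of the 245 genes called at day 1, 101 were called in the same direction at day 3 and 116 at day 14, 104 on neither later day, and 0 were called in the opposite direction. A difference between the day 14 and the day 1 change was called for 39 genes (0.177%), of which 5 had been called at day 1. In transcript clusters the count was 58 (0.0843%), and it became 8 without control rat 4 and to 17 without control rat 1. Besides Tubb4b and its pseudogene cluster Tubb4b-ps2 these were Tcp11l2, Efnb3 and Lrrd1. Efnb3, an ephrin ligand, fell by 0.79 ± 0.12 at day 1 and had 0.15 at day 14. Tcp11l2 rose by 1.70 ± 0.21 at day 1 and had a change of 0.04 at day 14, a difference of -1.66 ± 0.30 (adjusted p = 0.0316). Lrrd1, a leucine-rich repeat gene under the bound, had 1.52 ± 0.17 at day 1 and -0.09 at day 14. Pdk4 was not called at day 3 (1.93) or day 14 (1.88), and the difference of its day 14 change from day 1, -2.14 ± 0.86, did not pass (adjusted p = 0.436). Txnip, Cpt1a, Cd36 and Gpihbp1 were called in the same direction on all 3 days.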

How the data were processed

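RNA of the left ventricle apex was hybridised to Affymetrix Rat Transcriptome Arrays, and the authors deposited linear intensities, made by correcting for GC content, transforming the signal space and summarising by RMA. No version or build for this is given in the sources used here. The log2 of each intensity was analysed without rescaling. Between 15 and 18 transcript clusters per day 1 array lay near the top value, where changes may be compressed. Of 70580 rows, 1738 control rows were left out, among them 1153 negative controls, which set the bound of 8.44. Gene symbols came from the platform annotation (23446 transcript clusters with 1 symbol, 505 with several, 44891 with none), and where a gene had several clusters the brightest stood for it. The test was that of limma 3.58.1 (R 4.3.3), with 1 mean per group over all 24 arrays, moderated statistics and Benjamini-Hochberg adjustment over 68842 clusters. Each adjusted p in the text is from this fit unless the 8 arrays alone are named. The fit was tested on simulated data. Promoter windows were matched by symbol for 17125 of 22093 genes. Plots used matplotlib 3.10.9 (Python 3.11.15).

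The genes and the 51 lists (1037 of 1092 listed genes measured, 46 in more than 1 list) were chosen with earlier results of these data known, so list counts are descriptions. Genes were named as the 20 largest rises and falls above the bound, as members of the lists and markers, or by the smallest p between days, and 1 of the 20 falls is not reported here. Genes said to be chosen after their values were seen, with Magee1, Lclat1, Rnf128, Gpn1, Efnb3 and Tubb4b-ps2, which complete short counts, fall outside that rule. Replicates are rats. The rat numbers of the labels were not used as pairs. Of 12 same-numbered pairs, 1 had deviations correlated above 0.1 (range -0.17 to 0.12), which cannot show how rats were caged or processed. The alternatives tried were 2 filters on dim clusters, quantile normalization, equal medians of the arrays, 1 cluster or the mean of clusters per gene, trended and robust variances, array weights, a replicate block, the day 1 arrays alone, each day 1 array left out, a minimum change of 1.8-fold and the methods' rank test.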

Additional observations from a re-analysis of the deposited data

Results flagged for a closer look

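Day 1 values were checked for a single rat far from the other 3 of its group, by Dixon's ratio, in 256 groups of the named genes. The check picked out 11 (4.3%), and chance alone picks out about 1 group in 20. Control rat 4 was low for Gpam (11.94), Lipe (7.61) and Slc2a4 (12.10) and high for Ech1 (13.65). Control rat 1 was low for Sik1 (8.67), and control rat 3 was high for Clpx (13.53). Among rotenone rats, rat 2 was low for Penk (8.38) and high for Smyd1 (14.43), rat 3 was low for Calcoco1 (11.03), and rat 4 was low for Calm2 (12.35) and Idi1 (6.53).

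The change at day 14 differed from the change at day 1, in limma's test of the difference itself, for 11 named genes. Tubb4b (1.62), Tubb4b-ps2 (1.74) and Efnb3 (0.94) were lower at day 1 and not at day 14. Tcp11l2 (-1.66) and Lrrd1 (-1.61) were higher at day 1 and not at day 14. Alas2 (-5.99), Col3a1 (-3.04), Bmal1 (-2.72), Mfap4 (-2.48), Col1a1 (-2.46) and Slc4a1 (-2.44) were not called at day 1 and were lower at day 14.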

How the results depend on the processing

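No call that the text names was reversed by an alternative, though most alternatives could not reverse one. Of the 92 calls, 61 stayed whichever day 1 array was left out, quantile normalization ended 15 and equal medians 11. The 337 transcript clusters called became 643 or 654 with dim clusters left out, 631 with 1 cluster per gene and 619 with the mean of a gene's clusters, all of which test fewer features, 68 with the day 1 arrays alone, which use fewer samples, and 0 against a minimum change of 1.8-fold. For the 65 calls in the gene lists these values were 113, 107, 128, 125 and, with the day 1 arrays alone, 21. Of the 40 named genes with the largest changes, 26 stayed called with the day 1 arrays alone. In that fit the PPAR and fasting targets kept 4 of 8 calls, fatty acid oxidation 1, glycolysis 0, tubulins 1 and the Atg8 list 1. With 1 cluster per gene or the mean of clusters, oxidation had 7, tubulins 10 and the Atg8 list 5, and oxidation had 9 above the bound. The difference between days 3 and 1 went from 0 to 6 clusters with quantile normalization and 2 with trended and robust variances, and that between days 14 and 1 from 58 to 38 with equal medians and 96 with trended and robust variances. The cause was not tested.

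Leaving out 1 array gave 172 to 282 clusters (172 without rotenone rat 4, 176 without control rat 2 and 193 without control rat 1), 49 to 58 list calls, 31 to 37 of the 40 largest, 0 to 16 differences between days 3 and 1 (16 without rotenone rat 4) and 8 to 50 between days 14 and 1. By list this was 8 to 9 for PPAR targets, 3 to 5 for oxidation, 3 to 4 for glycolysis, 4 to 5 for tubulins and 2 to 3 for the Atg8 list. The replicate block gave 297 clusters, and it ended 8 of the 92 calls. Only 1 of the 4 day 1 rats correlated best with its own number, and the numbers are not read as pairs. Only 14.7% of clusters lay above the bound, which limits what could be detected.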
